A study of Mus musculus with 12 samples.

Results

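The noncoding transcripts outside the small nucleolar RNAs (snoRNAs) were described in RNA-seq libraries of mouse female germline stem cells (FGSCs), cultured C57BL/6 cells of the germ line. They were taken by identifier: every listed transcript with a RefSeq noncoding ID (prefix NR) whose symbol is not that of a snoRNA or small Cajal body RNA, and without Malat1, Neat1 and Kcnq1ot1. This gave 225 transcripts of the 3356 listed in the series, 58 of 648 in the overexpression table and 200 of 3156 in the knockdown table, with 33 in both. The 4 groups of 3 libraries were FGSCs with Usp7 overexpression and their controls, and FGSCs with Usp7 knockdown and their controls. Usp7 is a deubiquitinase, an enzyme that removes ubiquitin from proteins. The sources used here do not give how Usp7 was raised or lowered, what the controls received, or whether the 3 libraries of a group came from separate cultures. The p-values therefore cover the spread between libraries, which may be technical. Usp7 itself was not analysed here, and the labels could not be checked against its level.

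Noncoding RNAs of these classes have different roles. The 45S ribosomal RNA (rRNA) precursor, Rn45s, is made by RNA polymerase I and cut into most of the RNAs of the ribosome, while snoRNAs guide the chemical marks placed on it. Many snoRNAs lie in introns of long noncoding host RNAs (the Snhg genes), whose spliced products are short-lived, and imprinted lncRNAs such as Meg3 are expressed from 1 parental allele.

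The sequences that follow are promoters of 4 members and mature microRNAs of hairpins among the members, taken from RefSeq on GRCm38.p6. The 4 promoters were picked by name and not by a rule or ranking. The promoters of 3 snoRNA hosts, of which Snhg12 and Snhg15 were lower and Gas5 higher in knockdown, are shown with that of Meg3, one of the most reduced lncRNAs in overexpression. Each runs from 250 bases before to 50 after an annotated start, 5′ to 3′ on the gene's strand. Meg3 and Gas5 have 2 annotated starts each, and the window with more of the motifs below is shown. A match in these windows thus follows partly from that choice. Capitals mark 2 searched motifs, the cAMP response element TGACGTCA and the E-box CACGTG, which read alike on both strands. Another motif, TGATGNAA, a composite element bound by ATF4 and C/EBP proteins, was searched on both strands and is in none of the 4 windows.
Meg3 promoter, chr12:109540746-109541045 (+): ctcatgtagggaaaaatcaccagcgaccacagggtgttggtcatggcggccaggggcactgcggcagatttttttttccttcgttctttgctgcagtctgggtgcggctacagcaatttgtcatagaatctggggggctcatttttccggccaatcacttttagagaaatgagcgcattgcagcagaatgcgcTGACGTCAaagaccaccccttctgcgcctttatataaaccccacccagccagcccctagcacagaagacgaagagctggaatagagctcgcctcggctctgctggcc
Snhg15 promoter, chr11:6528711-6529010 (-): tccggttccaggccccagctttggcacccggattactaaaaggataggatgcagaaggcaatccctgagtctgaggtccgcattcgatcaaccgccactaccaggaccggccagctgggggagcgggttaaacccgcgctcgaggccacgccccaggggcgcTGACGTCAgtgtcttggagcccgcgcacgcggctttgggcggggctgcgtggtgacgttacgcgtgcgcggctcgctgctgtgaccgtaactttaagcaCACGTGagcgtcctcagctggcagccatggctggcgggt
Gas5 promoter, chr1:161034916-161035215 (+): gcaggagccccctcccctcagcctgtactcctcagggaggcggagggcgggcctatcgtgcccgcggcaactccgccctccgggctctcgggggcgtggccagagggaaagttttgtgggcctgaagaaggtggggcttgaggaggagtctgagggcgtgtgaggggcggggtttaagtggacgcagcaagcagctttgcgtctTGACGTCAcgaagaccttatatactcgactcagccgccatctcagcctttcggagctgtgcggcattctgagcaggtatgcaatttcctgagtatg
Snhg12 promoter, chr4:132308428-132308727 (+): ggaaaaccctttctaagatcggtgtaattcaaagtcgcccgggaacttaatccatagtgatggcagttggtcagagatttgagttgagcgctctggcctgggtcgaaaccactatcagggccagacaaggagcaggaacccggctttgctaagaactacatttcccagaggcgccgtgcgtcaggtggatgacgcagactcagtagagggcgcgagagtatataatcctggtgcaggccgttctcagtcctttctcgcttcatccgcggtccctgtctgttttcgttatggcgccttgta

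TGACGTCA was found in the windows of Meg3, Snhg15 and Gas5, where it begins 57, 88 and 46 bases before the start. The window of Snhg15 also holds the E-box, after the start and without overlap. For comparison, 1.79% of all 32851 promoters in the RefSeq set hold TGACGTCA, 7.15% the E-box and 3.97% TGATGNAA. Of the 164 promoters matched to 147 member genes, 3.66%, 8.54% and 3.66% hold them. TGACGTCA is in 6 of the 164, those of Meg3, Snhg15 and Gas5 included. The windows shown therefore do not give its share among members. A match describes letters in the window and not a binding site.

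The 8 hairpins among the members gave 10 mature microRNA sequences for 7 of them. No 2 of these shared a seed, bases 2 to 8, which is in capitals and is the stretch that pairs with targets. For 6 of the hairpins 1 mature sequence each is shown, the 5p one where RefSeq gives a pair.
miR-703, chr5:98475616-98475636 (-): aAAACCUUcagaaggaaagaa
miR-6236, chr9:110281353-110281371 (+): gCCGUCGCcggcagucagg
miR-682, chr13:75645119-75645139 (+): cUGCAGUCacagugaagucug
miR-5125, chr17:23823339-23823358 (+): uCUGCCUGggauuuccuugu
miR-7232-5p, chr6:81895640-81895663 (-): uACAUGGAugauuguuuuuccaag
miR-196a-5p, chr11:96265187-96265208 (+): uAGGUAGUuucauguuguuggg

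Both tables hold only transcripts that passed the authors' own test on these libraries, so nearly every listed transcript passes a test again. None has a deposited fold below 1.5 in either direction. Values are normalized counts, the authors' reads divided by 1 size factor per library. Folds are log2(normalized count + 1) differences, construct minus control, from limma with Benjamini-Hochberg (BH) adjustment over all tested transcripts of a table. For overexpression, 100% of the 613 tested transcripts were called, 65.3% higher and 34.7% lower. Of the 50 tested members 26 were called higher and 24 lower, with a median log2 fold of 1.14 against 1.31 over all tested. Under median-of-ratios scaling 19 members were called higher and 24 lower, with a median of -0.07, and 226 of all tested were called higher and 251 lower, with a median of 0.12. For knockdown, 99.9% of the 2902 tested were called, 49.1% higher and 50.7% lower. Of the 181 tested members 59 were called higher (32.6%) and 122 lower (67.4%), with a median of -1.10 against -0.61 over all tested. Under scaling to column totals 20 members were called higher and 122 lower, and 269 of all tested were called higher and 1487 lower. That scaling moved the median of all tested transcripts to -1.42. Without library scaling 47 members were called higher and 121 lower, and 699 of all tested were called higher and 1444 lower.

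**Figure D1:**
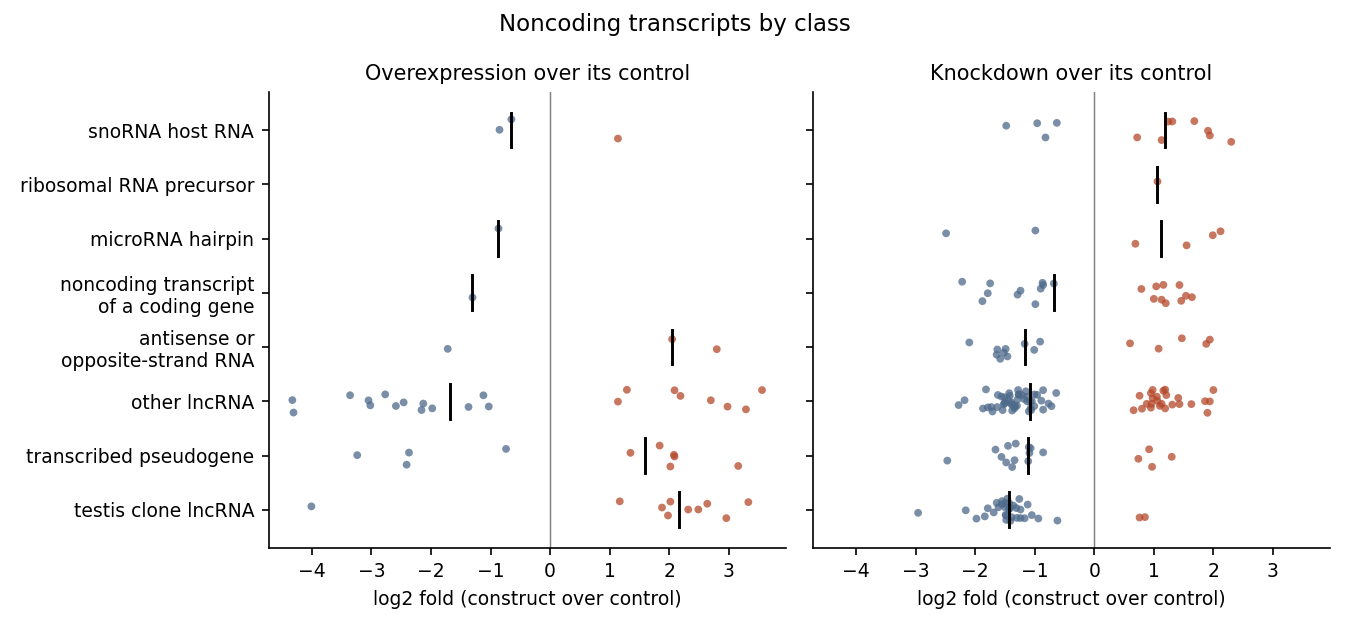
Log2 folds of the tested noncoding transcripts by class, overexpression over its control on the left (50 transcripts) and knockdown over its control on the right (181 transcripts). Each point is 1 transcript at its fitted fold, red if higher and blue if lower, and the black bar is the class median. Testis clone lncRNAs lie mainly to the right in overexpression and to the left in knockdown. Of the snoRNA host RNAs in knockdown 8 are higher and 4 lower.

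Listed normalized counts summed to 131157 to 155114 in overexpression libraries and 128056 to 139647 in their controls, and to 5376105 to 5520326 in knockdown libraries and 3012377 to 3221343 in theirs. The total depth is unknown. Control replicate 2 of the knockdown table exceeded both other controls more than 4-fold for 155 of all 3156 listed transcripts, but for 2 of the 200 members, Rian and AU015836. Among marker genes of germ cells, 4 of 16 were listed in the knockdown table (Sohlh1, Nobox, Ifitm3 and Id4), with summed normalized counts of 21.8 to 29.1 in knockdown libraries and 62.5 to 135.9 in controls, and none in the overexpression table. The highest of these sums was in control replicate 2, and Nobox was at 0 in 2 knockdown libraries. Other germ cell markers were not analysed here, so the labelled cell type could not be checked against them. Of 10 fibroblast and feeder markers, 4 were listed in knockdown, with Vim and S100a4 higher and Col1a1 and Col1a2 lower. Their sums were 8207 to 9848 in knockdown libraries and 5758 to 6999 in controls. In overexpression 1 of the 10, S100a4, was listed, at 1618 to 1833 in overexpression libraries and 962 to 1176 in controls. Of 8 immune markers, Ptprc and Cd68 were listed, summing to 140 to 171 in knockdown libraries and 384 to 432 in controls. Of 10 granulosa and theca markers, Cyp17a1 was listed in both tables. It read 109, 331 and 128 in overexpression libraries and 548, 543 and 561 in controls, and 2.08, 0.779 and 1.39 in knockdown libraries and 2.45, 64.1 and 4.90 in controls. The part of these markers in the results was not tested. Fewer cells of a type and less RNA per cell cannot be told apart in such bulk libraries.

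Rn45s (NR_046233), the rRNA precursor, had the highest counts of all members. Its normalized counts were 3511044, 3520411 and 3242080 in knockdown libraries, against 1700825, 1552441 and 1672143 in controls. Every knockdown library lay above every control, and the knockdown libraries lay within a narrow band. Groups were separate for 3106 of all 3156 transcripts listed in knockdown. The log2 fold was 1.06 ± 0.17 (SE, n = 3 libraries a group, limma BH-adjusted p = 0.00038). Rn45s made up 65.3%, 63.8% and 58.7% of the listed counts in knockdown and 52.8%, 51.5% and 53.6% in controls. All other listed transcripts together summed to 1865061, 1996670 and 2278246 in knockdown and to 1520518, 1459935 and 1446884 in controls. Their sum was thus higher in knockdown too. Scaled to column totals the Rn45s fold was 0.25 (limma BH-adjusted p = 0.13), and scaled to totals without Rn45s it was 0.59 (limma BH-adjusted p = 0.0011). Copies of the rRNA genes are many and near identical, and the sources used here do not give how reads were assigned among them. Reads of the precursor and of the rRNAs cut from it cannot be told apart from these counts. Whether synthesis of the precursor changed was not tested. Rn45s was not in the overexpression table and was not analysed there.

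Genes that make and process rRNA were higher in the same libraries. Of a list of 97 genes for RNA polymerase I and rRNA processing, 50 genes (51 transcripts, the members Taf1d and Nop56 among them) were listed in knockdown. All 51 were called higher, with log2 folds of 0.58 to 1.86 and a median of 0.88, against 49.1% called higher among all tested. Polr1b, the second-largest subunit of RNA polymerase I, read 2718, 2988 and 3199 in knockdown libraries and 1447, 1360 and 1472 in controls (log2 fold 1.05 ± 0.09, limma BH-adjusted p = 2.5e-05). Nop10, a core protein of H/ACA snoRNA particles, read 1034, 1234 and 1672 in knockdown and 386, 345 and 332 in controls (1.86 ± 0.17, limma BH-adjusted p = 2.6e-05). Npm1, the nucleolar protein nucleophosmin, read 751, 925 and 1963 in knockdown and 399, 323 and 317 in controls, with knockdown replicate 3 far above the other two (1.68 ± 0.31). None of the 3 genes had overlapping groups, nor had 3106 of all 3156 transcripts listed in knockdown. The count called higher was 10 under column totals (median 0.07), 42 under totals without Rn45s and 29 without library scaling. None was called lower under any of these scalings, and none of the 97 genes was in the overexpression table. Of 48 coding genes that host snoRNAs, 9 were listed in knockdown, and all 9 were called higher (median 0.92). Ncl, Npm1, Nop56 and Taf1d are among these 9 and among the 51 above, so the sets are not separate results.

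**Figure D2:**
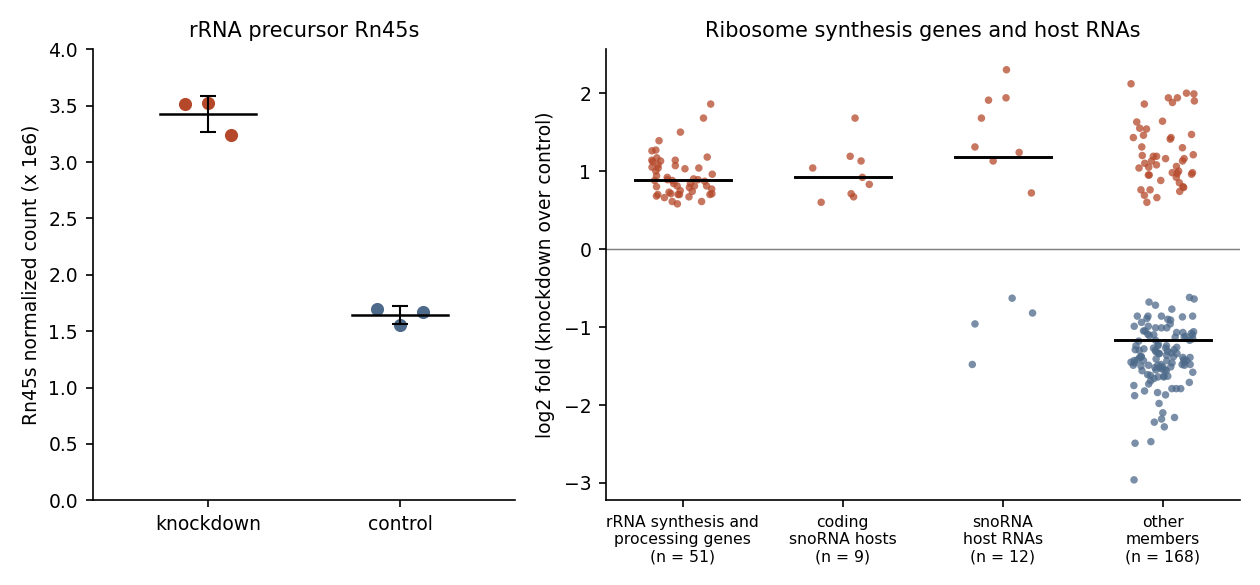
Left, normalized counts of Rn45s (axis divided by 1e6) for the 3 knockdown libraries and the 3 controls, with the mean and SD. Right, log2 folds (knockdown over control) of the rRNA synthesis and processing genes, the coding snoRNA hosts, the snoRNA host RNAs and the other members, 1 point per transcript with the median as a bar. The 51 rRNA synthesis and processing transcripts and the 9 coding hosts all lie above 0, and the other members mostly lie below. Ncl, Npm1, Nop56 and Taf1d are drawn in both of these sets, and Nop56 and Taf1d again among the other members.

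The snoRNA host RNAs listed in knockdown included higher and lower ones, in a table that holds only transcripts past the authors' test. Of all tested transcripts 49.1% were called higher and 50.7% lower. Of 13 listed, 12 were tested, 8 were called higher and 4 lower, with a median log2 fold of 1.19, against -1.10 for all tested members. Dancr, an lncRNA with Snora26 in its span, read 40.5, 52.2 and 43.0 in knockdown libraries and 4.90, 10.4 and 11.02 in controls (2.30 ± 0.32, limma BH-adjusted p = 0.00017). Snhg3, host of Snora73a and Snora73b, read 287, 337 and 510 in knockdown and 118, 77.1 and 93.1 in controls (1.94 ± 0.23, limma BH-adjusted p = 8.3e-05). In both, the lowest knockdown library was well above the highest control. Gas5, a host RNA known to build up in cells that stop growing, read 45.7, 42.9 and 31.9 in knockdown and 16.3, 16.5 and 13.5 in controls (1.31 ± 0.23, limma BH-adjusted p = 0.00054). Also higher were 5730408K05Rik (1.91 ± 0.32), 1110038B12Rik (1.68 ± 0.17), Snhg16 (listed as 1810032O08Rik, 1.24 ± 0.24), Snhg4 (1.13 ± 0.11) and Snhg20 (0.72 ± 0.11). Under column totals Gas5 (0.54) and Snhg16 (0.45) were no longer called, and Snhg20 was at -0.09.

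The 4 lower hosts had high counts. Snhg12 (chr4:132308678-132311024, + strand) read 319, 360 and 391 in knockdown libraries, against 1077, 932 and 974 in controls (-1.48 ± 0.11, limma BH-adjusted p = 1.5e-05). Its groups lay far apart, and the knockdown libraries were close to each other. Zfas1, antisense to the 5′ end of Znfx1, read 648, 641 and 788 in knockdown and 1335, 1210 and 1112 in controls (-0.82 ± 0.12, limma BH-adjusted p = 0.0002). 2410006H16Rik read 471, 526 and 773 in knockdown and 1260, 1089 and 1035 in controls (-0.96 ± 0.18, limma BH-adjusted p = 0.00078). Snhg15 read 339, 346 and 382 in knockdown and 587, 534 and 534 in controls (-0.63 ± 0.10, limma BH-adjusted p = 0.00034). All 4 stayed lower under every scaling tried. Rian, an imprinted host of C/D snoRNAs, failed the filter on low values. It read 0, 0.779 and 0 in knockdown and 2.45, 32.04 and 1.23 in controls, so control replicate 2 alone carried it.

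For 3 of the 4 lower hosts, snoRNAs listed within the host's span moved the other way. In Snhg12, Snora16a read 20.8, 18.7 and 22.2 in knockdown and 6.54, 3.46 and 3.67 in controls (1.99 ± 0.33), and Snord99 was also higher (1.69 ± 0.38). In Zfas1, Snord12 read 26.0, 17.9 and 16.6 in knockdown and 3.27, 1.73 and 3.67 in controls (2.46 ± 0.38). In 2410006H16Rik, Snord49a (1.49 ± 0.27) and Snord49b (1.90 ± 0.46) were higher. These 5 snoRNAs were all called higher, while the RNA that spans each was called lower. Of all tested transcripts 49.1% were called higher. Snord52, Snora74a and Snord110, in the spans of members called higher, read higher too, so a higher snoRNA was not particular to the lower hosts. Among the higher hosts, Snord52 (2.74 ± 0.39) rose with 1110038B12Rik. Snora74a and the Mir1949 hairpin (1.99 ± 0.26) lie in Snhg4. Snora74a failed the filter at 32.2, 23.4 and 9.70 in knockdown and 6.54, 8.66 and 4.90 in controls. Under column totals Snord99 and Snord49b were no longer called. Reads of a snoRNA and of an unspliced host cannot be told apart from these counts.

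**Figure D3:**
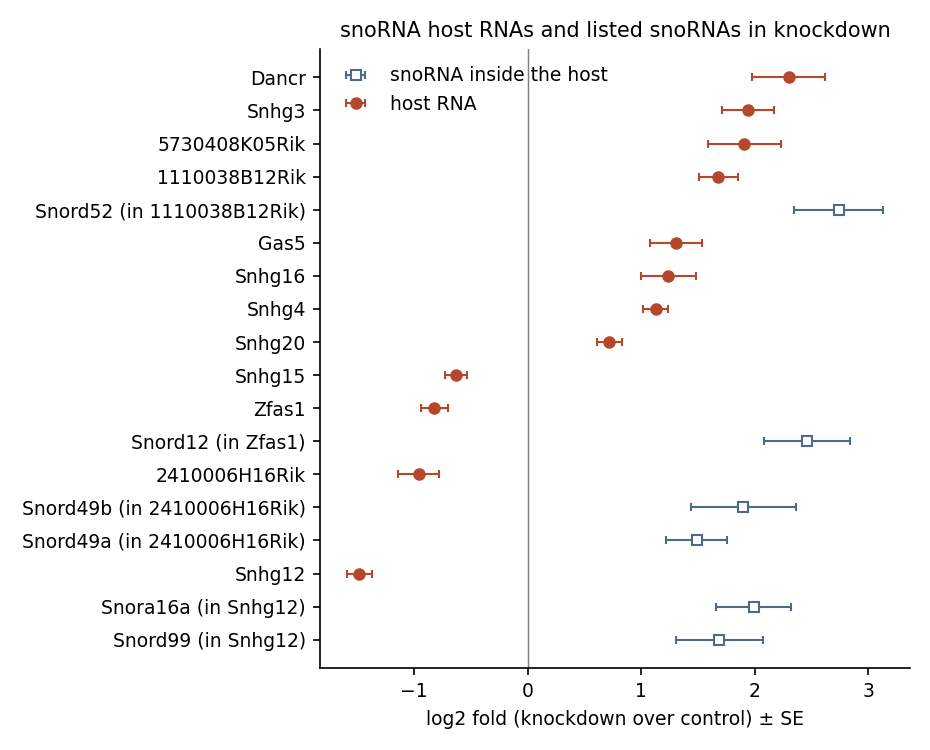
Log2 folds (knockdown over control) with SE of the 12 tested snoRNA host RNAs (filled circles) and of the tested snoRNAs in their spans (open squares, placed under their host). Snhg12, 2410006H16Rik and Zfas1 lie left of 0, and the 5 snoRNAs in their spans lie right of 0.

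In overexpression 3 host RNAs were listed. Snhg3 was higher, with 347, 318 and 472 in overexpression libraries and 144, 195 and 171 in controls (1.14 ± 0.19, limma BH-adjusted p = 0.00018). Snhg5 was lower, with 557, 516 and 563 in overexpression and 897, 1045 and 1016 in controls (-0.85 ± 0.14, limma BH-adjusted p = 0.00015). Snhg15 was lower, with 279, 217 and 296 in overexpression and 399, 420 and 416 in controls (-0.65 ± 0.16, limma BH-adjusted p = 0.002). No pair of groups overlapped for these 3, nor for 647 of all 648 transcripts listed in overexpression. Under median-of-ratios scaling the Snhg3 fold was -0.08. The 1 coding host listed, Rpl21, was lower (-1.84 ± 0.41).

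Among lncRNAs with a mean of at least 50 normalized counts, the lowest fold in overexpression was that of Meg3, the maternally expressed RNA of the imprinted Dlk1-Dio3 region (chr12:109540996-109571729, + strand). Its transcript NR_003633 read 18.2, 4.37 and 1.36 in overexpression libraries and 118, 142 and 111 in controls (-4.31 ± 0.60, limma BH-adjusted p = 5.5e-05). Its transcript NR_027652 read 7.16, 5.46 and 0 in overexpression and 34.2, 29.9 and 24.97 in controls (-3.02 ± 0.66, limma BH-adjusted p = 0.001). Both sets of groups lay far apart, although overexpression replicate 1 was above the other overexpression libraries in each. The 2 transcripts belong to 1 gene, and reads may be shared between them. Meg3 was not in the knockdown table and was not analysed there. 2610507I01Rik read 22.8, 13.1 and 13.6 in overexpression and 121, 158 and 143 in controls (-3.05 ± 0.27, limma BH-adjusted p = 2.8e-06). Below that mean, Wbscr25 read 1.95, 4.37 and 2.72 in overexpression and 64.4, 70.9 and 102 in controls (-4.33 ± 0.34, limma BH-adjusted p = 1.7e-06).

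Other named lncRNAs were reduced too. Carmn, an RNA of smooth muscle from the locus of the Mir143 and Mir145 microRNAs, read 19.5, 21.9 and 8.15 in overexpression libraries and 87.5, 90.9 and 86.9 in controls (-2.46 ± 0.34, limma BH-adjusted p = 5.7e-05). Foxl2os, transcribed opposite Foxl2, a regulator of granulosa cells, read 90.4, 103 and 23.1 in overexpression and 206, 203 and 192 in controls (-1.72 ± 0.44, limma BH-adjusted p = 0.0027). Its replicate 3 was the lowest, while the theca marker Cyp17a1 was lower in all 3 overexpression libraries (-1.72 ± 0.33), and Foxl2 was not analysed here. Firre, an X-linked nuclear RNA, read 193, 180 and 130 in overexpression and 326, 356 and 335 in controls (-1.03 ± 0.18, limma BH-adjusted p = 0.00023). The control libraries of these RNAs were close to each other. No groups overlapped, nor did those of 647 of all 648 transcripts listed in overexpression. Mirt1 (-1.98 ± 0.36) and 5430416N02Rik (-1.12 ± 0.15) were also lower. Gm5424, a pseudogene copy of Ass1, the argininosuccinate synthase gene, was lower (-0.74 ± 0.18), as was Ass1 (-0.66). Without library scaling 4 transcripts were no longer called in overexpression, with folds close to those above. Gm5424 was at -0.71 (limma BH-adjusted p = 0.059), Ass1 at -0.62 (0.087), Snhg15 at -0.62 (0.098) and Mir5125 at -0.84 (0.053). Reads of such near copies may be shared.

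The members raised in overexpression were mostly RNAs with clone or predicted names. Gm2762 read 125, 90.7 and 106 in overexpression libraries and 7.04, 9.97 and 13.9 in controls (3.29 ± 0.30, limma BH-adjusted p = 3.4e-06). Gm7444, a transcribed pseudogene, read 141, 108 and 144 in overexpression and 17.1, 17.7 and 8.32 in controls (3.16 ± 0.31, limma BH-adjusted p = 5.8e-06). 1700123L14Rik read 219, 197 and 254 in overexpression and 49.3, 42.1 and 65.7 in controls (2.09 ± 0.21, limma BH-adjusted p = 6.6e-06). In each the overexpression libraries stood clear of the controls. 1700001J11Rik (2.08 ± 0.22), 1700028J19Rik (2.02 ± 0.27), Rps4l (1.35 ± 0.22), 1700001L05Rik (1.17 ± 0.21) and 9330102E08Rik (1.14 ± 0.21) were higher as well. Under TMM scaling 1700001L05Rik (0.43) and 9330102E08Rik (0.39) were no longer called. Under median-of-ratios scaling 1700001L05Rik was at -0.03 and 9330102E08Rik at -0.07, and Rps4l at 0.15 was no longer called.

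**Figure D4:**
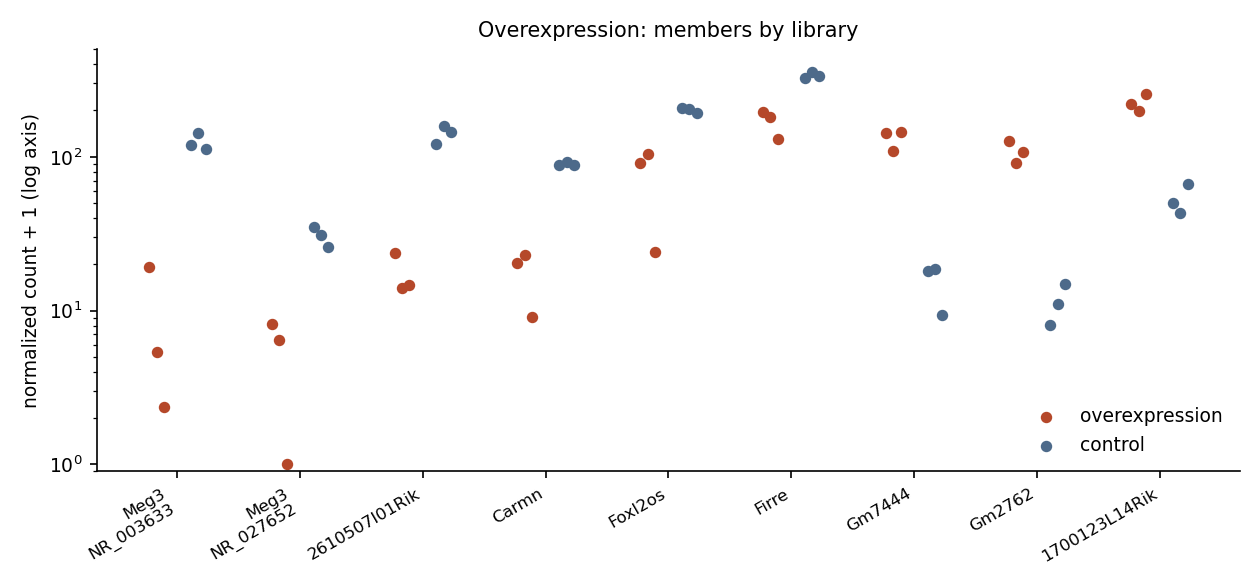
Normalized counts plus 1 on a log axis for 9 transcripts in the 3 overexpression libraries (red, left of each pair) and their 3 controls (blue, right of each pair). The 2 Meg3 transcripts, 2610507I01Rik, Carmn, Foxl2os and Firre lie lower in every overexpression library, and Gm7444, Gm2762 and 1700123L14Rik lie higher.

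Among the lncRNAs raised in knockdown, 6530402F18Rik had the highest counts after Rn45s, with no correction for length. It read 1378, 1591 and 1941 in knockdown libraries and 747, 696 and 776 in controls (1.13 ± 0.13, limma BH-adjusted p = 7.6e-05). AU022793 read 546, 450 and 400 in knockdown and 127, 104 and 142 in controls (1.90 ± 0.16, limma BH-adjusted p = 2e-05). Mir17hg, the host of the miR-17-92 cluster, read 163, 114 and 80.4 in knockdown and 51.5, 43.3 and 55.1 in controls (1.19 ± 0.25, limma BH-adjusted p = 0.0014). The groups of all 3 were separate, with the Mir17hg libraries the most spread. 9930014A18Rik (1.94 ± 0.25), AI506816 (1.43 ± 0.18), LOC102632231 (1.31 ± 0.12) and the pseudogene Gm12338 (1.30 ± 0.23) were also higher. Mir17hg (0.38) and Gm12338 (0.49) were not called under column totals. Groups did not overlap for 199 of the 200 listed members, nor for 3106 of all 3156 listed transcripts, in a table that holds only transcripts past the authors' test. The exception was Gm10069, at 88.3, 53.8 and 101 in knockdown and 62.9, 20.8 and 29.4 in controls.

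Of 15 lncRNAs linked to p53 or stress, 5 were listed in knockdown, with Gas5 higher and Snhg12, Snhg15, Mir22hg and Trp53cor1 lower. The lower ones were 80.0% of these 5, against 67.4% of all tested members and 50.7% of all tested transcripts. Trp53cor1, the p53-induced lincRNA-p21, read 30.1, 35.1 and 16.6 in knockdown libraries and 57.2, 52.8 and 58.8 in controls (-1.08 ± 0.27, limma BH-adjusted p = 0.0038). Mir22hg, the host of miR-22, read 39.5, 41.3 and 33.3 in knockdown and 76.8, 90.1 and 66.1 in controls (-1.01 ± 0.18, limma BH-adjusted p = 0.00061). Neither pair of groups overlapped, nor did those of 3106 of all 3156 transcripts listed in knockdown. In overexpression 2 of the 15, Meg3 and Snhg15, were listed, both lower. Of 20 imprinted or X-linked noncoding RNAs, Nespas, antisense in the imprinted Gnas cluster, read 8.32, 7.79 and 5.54 in knockdown and 22.9, 19.05 and 33.1 in controls (-1.64 ± 0.31, limma BH-adjusted p = 0.00088). Of the rest of that list, Rian and Kcnq1ot1 were also in the table. Among the RNAs on no list and with a mean of at least 50, A330023F24Rik (-1.73 ± 0.23), AY702103 (-1.52 ± 0.16), Gm10638 (-1.51 ± 0.17) and the pseudogene Mospd4 (-1.48 ± 0.15) were among the lowest.

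Of 16 antisense and opposite-strand RNAs listed in knockdown, 15 were tested, 5 were called higher and 10 lower (66.7%, against 67.4% of all tested members). Some have a listed coding gene beside them. Emx2os (1.94 ± 0.25) was higher with Emx2, a homeobox gene (1.49 ± 0.23), and Rab26os (1.88 ± 0.25) with Rab26, which encodes a vesicle GTPase (2.24 ± 0.46). Neither overlaps its neighbour, and both lie within 2000 bases of it. Ppifos (1.47 ± 0.24), which overlaps Ppif, was higher, and so was this gene of the mitochondrial cyclophilin (1.47 ± 0.12). Arhgap33os was lower (-1.52 ± 0.17). Over all classes, 16 members overlapped a listed coding gene, in 17 pairs, of which 14 lie on opposite strands. By the authors' deposited table the folds of 16 of these pairs had the same sign. Another 10 pairs, 9 of them of members without an overlap, lay within 2000 bases, and 7 of these had the same sign. Among the overlaps, 4930488L21Rik was lower (-1.64 ± 0.19) with Gnao1, a G protein subunit gene (-1.52 ± 0.16). The exception was the Mir703 hairpin, which was higher inside Cfap299, which was lower (-1.70 ± 0.18). The sources used here do not give whether strand was kept, so reads of a gene and of its antisense partner cannot be told apart.

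Noncoding transcripts of coding genes here are those with a noncoding ID whose gene RefSeq gives as protein-coding. For 5 of them in knockdown, Mtln among them, the ID was not found in RefSeq and the gene was matched by symbol. In knockdown 21 were listed and tested, 10 called higher and 11 lower, close to the 49.1% higher and 50.7% lower of all tested transcripts. Under column totals it was 1 and 11, a scaling that left fewer called higher over the whole table as well. Cyb5r1, a reductase gene, had the largest fall among members with a mean of at least 50. Its transcript NR_149307 read 98.7, 99.0 and 81.8 in knockdown libraries and 436, 424 and 448 in controls (-2.22 ± 0.12, limma BH-adjusted p = 4.3e-06). The same transcript read 83.3, 68.9 and 61.1 in overexpression libraries and 152, 206 and 174 in their controls (-1.31 ± 0.20, limma BH-adjusted p = 9.7e-05). It was lower in every construct library of both tables. Nop56, a core protein of C/D snoRNA particles, read 60.3, 58.4 and 56.8 in knockdown and 34.3, 26.0 and 24.5 in controls (1.04 ± 0.19, limma BH-adjusted p = 0.00067). Taf1d, a subunit of the RNA polymerase I factor SL1, was higher (1.13 ± 0.29, limma BH-adjusted p = 0.0045). These counts are of single annotated transcripts, and the sources used here do not give how reads shared between forms were assigned.

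The microRNA hairpins were few. Counts on a hairpin's ID in a library of this kind come from longer RNA across it and are not levels of the mature microRNA. Of 7 listed in knockdown, 6 were tested, 4 higher and 2 lower, and of all tested transcripts 49.1% were called higher and 50.7% lower. Mir703 read 33.3, 49.9 and 122 in knockdown libraries and 13.1, 8.66 and 18.4 in controls (2.12 ± 0.46, limma BH-adjusted p = 0.0018). Mir6236 read 507, 576 and 407 in knockdown and 121, 185 and 208 in controls (1.55 ± 0.21, limma BH-adjusted p = 0.00016). Mir682 read 178, 248.6 and 432 in knockdown and 156, 169 and 170 in controls (0.69 ± 0.27, limma BH-adjusted p = 0.033). Knockdown replicate 3 stood highest for Mir703 and Mir682, and Mir682 was no longer called without knockdown replicate 2 (0.75, limma BH-adjusted p = 0.057) or without any 1 control (0.65 to 0.72, limma BH-adjusted p = 0.053 to 0.09). Under column totals Mir682 was at -0.11, and under totals without Rn45s at 0.23 (limma BH-adjusted p = 0.35). Mir5125 was lower in knockdown (-0.99 ± 0.14) and in overexpression (-0.87 ± 0.20), and Mir7232 was lower in knockdown (-2.49 ± 0.39). Mir196a-1, not tested, read 0, 1.09 and 0 in overexpression and 11.1, 5.54 and 12.02 in controls.

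The lncRNAs named after testis clones went in opposite directions in the tables. These carry RIKEN clone numbers of the kinds used mainly for adult testis cDNA, and were grouped after their values were seen. In overexpression 12 were listed and 10 tested, 9 higher and 1 lower, with a median log2 fold of 2.17, and 65.3% of all tested were called higher. The lower one, 1700031M16Rik, was at 0 in all 3 overexpression libraries and at 13.1, 16.6 and 15.7 in controls. Against a floor of 3 reads in each library it was at least 4.88-fold lower, and with this bound in place of its fitted fold the median was again 2.17. That floor takes the smallest value of a library as 1 read, which was not settled for overexpression replicate 1. In knockdown 37 were listed and 35 tested, 2 higher and 33 lower, with a median of -1.43, and 50.7% of all tested were called lower. The transcribed pseudogenes had 6 higher and 4 lower of 10 tested in overexpression, and 4 higher and 13 lower of 17 in knockdown. These are 60.0% higher, against 65.3% of all tested, and 76.5% lower, against 67.4% of all tested members. 4921525O09Rik read 28.6, 27.3 and 32.6 in overexpression libraries and 2.01, 2.22 and 1.85 in controls (3.33 ± 0.31, limma BH-adjusted p = 4.2e-06). It read 35.3, 25.7 and 27.7 in knockdown libraries and 104, 102 and 116 in controls (-1.84 ± 0.17, limma BH-adjusted p = 3.2e-05). The construct libraries of both tables were alike, and the controls lay on either side of them. 1700051A21Rik overlaps Slc13a5, the citrate transporter gene. Both were higher in overexpression (1.98 ± 0.33 and 2.01 ± 0.36) and lower in knockdown (-1.12 ± 0.22 and -1.62 ± 0.15).

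Most members of both tables had folds of opposite sign. Of the 33, by their group means, 26 (78.8%) showed higher values in overexpression but lower values in knockdown, as did 324 (72.3%) of all 448 transcripts in both tables. The 2 comparisons share no control libraries. Lower in both were 6 members (18.2%, against 18.1% of all), which were Snhg15, Cyb5r1, Carmn, Mir5125, BB014433 and 5430416N02Rik. Higher in both was Snhg3, 1 of 33 (3.03%, against 8.04%). None was lower in overexpression and higher in knockdown. Among the opposite ones, Gm6567 had log2 folds of 3.56 ± 0.40 in overexpression and -1.22 ± 0.14 in knockdown, and Gm7444 3.16 ± 0.31 and -1.56 ± 0.13. Gm2762 had 3.29 ± 0.30 and -1.38 ± 0.11.

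Set side by side, the levels of the 26 opposite members were close between the overexpression and the knockdown libraries and far apart between the 2 sets of controls. The tables were scaled separately, so these levels are a description with no test. Gm7444 read 141, 108 and 144 in overexpression libraries and 134, 149 and 119 in knockdown libraries. Its controls read 17.1, 17.7 and 8.32 for overexpression and 439, 389 and 366 for knockdown. 1700123L14Rik read 219, 197 and 254 in overexpression, 217, 237 and 241 in knockdown, 49.3, 42.1 and 65.7 in the overexpression controls and 631, 550 and 581 in the knockdown controls. For all 26, the mean in knockdown libraries was within 2-fold of the mean in overexpression libraries, with a median log2 ratio of 0.05. The mean in knockdown controls was more than 2-fold above that in overexpression controls for all 26, with a median log2 ratio of 3.59. Over all 324 transcripts with this pattern these medians were 0.05 and 3.50, with 315 within 2-fold and 323 more than 2-fold above in controls. Of the 33 members in both tables, all but Carmn were within 2-fold between the construct libraries, as were 424 of all 448 transcripts. The sources used here do not give whether the 2 sets of controls were made alike, so what the opposite folds mean cannot be told from these tables.

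**Figure D5:**
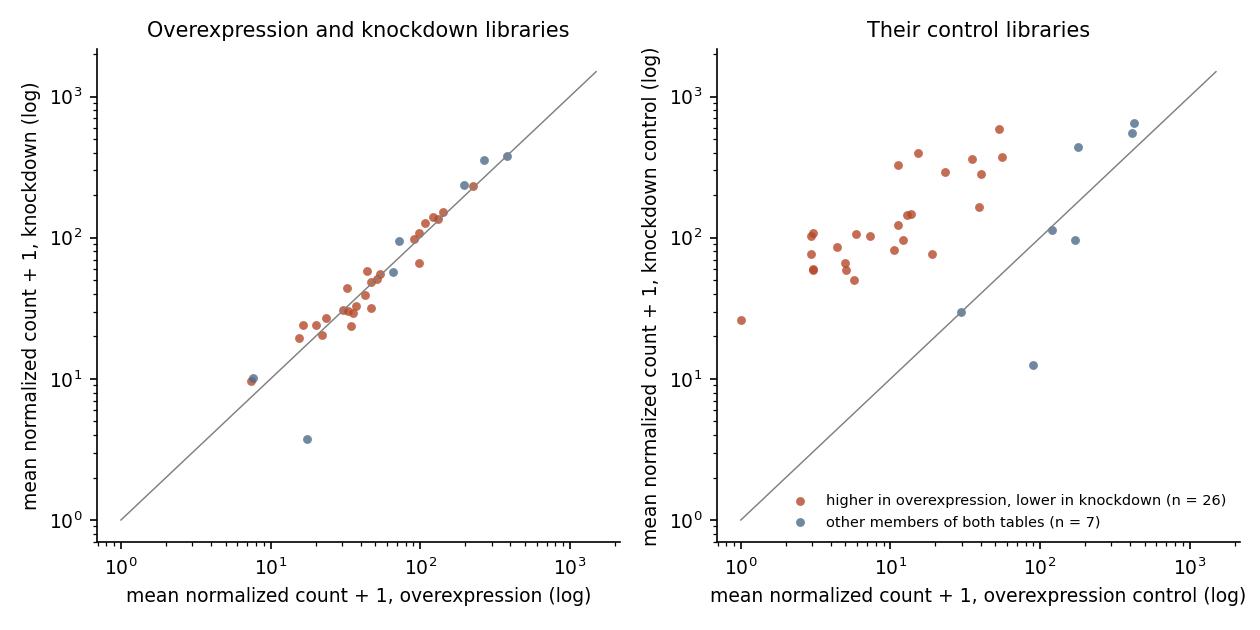
Mean normalized counts plus 1 (log axes) of the 33 members of both tables, knockdown against overexpression libraries on the left and knockdown controls against overexpression controls on the right. The grey line marks equal values, red points are the 26 members higher in overexpression and lower in knockdown, and blue points the other 7. Red points follow the line on the left and lie above it on the right.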

How the data were processed

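Per the labels, Trizol RNA went into Illumina TruSeq RNA libraries. Bowtie 0.12.2 and the builds mm10 and GRCm38 are named in the submitters' processing notes. Each library column holds a signal, the normalized count, for which the authors divided reads by a size factor. The deposited columns beside them are log2 folds with errors, a test score, p-values and adjusted p-values, and each table keeps transcripts past that test only. The smallest deposited fold in either direction was 1.5 in both tables, so smaller changes are absent from them. In all 12 columns 100% of values were whole multiples of the smallest, within 0.001 of a read or, above 1000 reads, a relative 1e-06. In 2 overexpression columns the size of 1 read was not settled, with under 100 low values or a size close to 1, so count tests were kept to knockdown.

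Limma 3.58.1 in R 4.3.3, with its trend option, fitted log2(normalized count + 1) under the size factors of the authors. Transcripts needed at least 10 in 3 libraries and a total of 15. Calls used a BH-adjusted p under 0.05. The fit was tested on simulated data. Alternatives were other scalings, pseudocounts of 5 and 0.5, no filter, each library left out, a replicate block, and, for knockdown, edgeR 4.0.16 and DESeq2 1.42.0 on recovered reads.

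Names and positions came from RefSeq on GRCm38.p6, which held 58 of 58 overexpression members and 198 of 200 knockdown members, 5 of these by symbol. The members and gene lists were chosen with earlier results of these data known. Named members were Rn45s, the 10 highest and 10 lowest folds per comparison with a mean of at least 50, those in both tables, those with a mean of at least 1000 and those on the lists, with coding genes that overlap or host them. BB014433, Gm10069, AU015836, Wbscr25, 1700031M16Rik and the hairpins off the lists were chosen after their values were seen, as were the snoRNAs in host spans.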

Additional observations from a re-analysis of the deposited data

How the results depend on the processing

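Over the 96 named folds the replicate block, both pseudocounts and no filter left every call in place, as did edgeR and DESeq2 for knockdown, which each called 59 members higher and 122 lower. The listed transcripts had all passed the authors' test on these same libraries, so that calls were kept was largely set in advance. The replicate block gave 50 called members in overexpression and 181 in knockdown, as without it. The replicate numbers did not pair the libraries, with correlations of deviations from -0.113 to 0.0451 in overexpression and from -0.102 to -0.0155 in knockdown. Other scalings ended some calls. In knockdown, column totals gave 20 members called higher, Rn45s at 0.25, Snhg20 at -0.09 and Mir682 at -0.11. Listed totals were 5376105 to 5520326 in knockdown libraries and 3012377 to 3221343 in controls, so this scaling lowers all folds nearly together. Signs that changed under it are thus not results about single transcripts. Why the totals differ was not tested. Totals without Rn45s ended the calls of Taf1d (0.67, limma BH-adjusted p = 0.068) and Mir682, and no library scaling those of Snhg20 (0.59, limma BH-adjusted p = 0.11) and Mir682 (0.57, limma BH-adjusted p = 0.12). In overexpression, median-of-ratios scaling put Snhg3 at -0.08, 1700001L05Rik at -0.03 and 9330102E08Rik at -0.07. Its factors come from the listed transcripts alone, and it too shifts the folds of a table nearly together. Leaving out each library gave 50 called members in overexpression and 179 to 181 in knockdown, and Rn45s folds of 1.02 to 1.10. Without library scaling, 47 members were called in overexpression, and Rn45s was at 0.94 in knockdown. Count tests were not run for overexpression. Totals without Rn45s were not run for overexpression, whose table holds no Rn45s. Low members are limited by depth, and 8 members in overexpression and 19 in knockdown failed the filter.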

Other observations

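Members that failed the filter on low values had separate groups in both tables, as nearly all listed transcripts did. Groups did not overlap for 647 of all 648 listed in overexpression and 3106 of all 3156 in knockdown. In overexpression, Hmgb1-rs17 and Spanxn4 were at 0 in all 3 overexpression libraries and at 8.32 to 9.97 and 5.03 to 15.5 normalized counts in controls. Gm6639 and 1700009C05Rik read 5.46 to 13.6 and 5.85 to 6.79 in overexpression and 0 in all controls. In knockdown, Gm31108, A330074K22Rik and Gm19583 were at 0 in all knockdown libraries and at 4.08 to 8.66 in controls. No fold was fitted for these. By the authors' deposited table, 31 of the 58 overexpression members were higher and 27 lower, and 59 of the 200 knockdown members were higher and 141 lower.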
